A study of Mus musculus with 6 samples.

Results

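The FOXO transcription factor genes Foxo1 (NCBI gene 56458), Foxo3 (56484) and Foxo4 (54601) were followed through every group of the study. They were taken by symbol, matched to the NCBI gene numbers of the count files, and make up 3 of the 23282 genes counted. No measured value entered that choice. RNA was counted by gene in 9 libraries of 6 mouse samples, from sorted blood progenitors and from marrow cells transformed with the leukaemia fusion gene MLL-AF9. The study asked how loss of Mll4, also named Kmt2d, which encodes a histone H3 lysine 4 methyltransferase, and return of FOXO3 alter such cells.

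All mice had a mixed 129/Sv x C57BL/6 background. LSK cells are marrow cells without lineage markers that carry Sca1 and c-Kit, and they came from poly(I:C)-treated MxCre+ littermates of 2 months. The MxCre transgene makes Cre recombinase in cells that respond to interferon, so poly(I:C) deletes floxed alleles in blood cells and in some other tissues. One LSK library was labelled Mll4f/f + Cre, called Mll4 deleted here, and 1 was labelled WT, and each was amplified by PCR from about 50 picked cells. The first transformation used MLL-AF9 retrovirus in Mll4f/f marrow, which was then infected with a Cre-Tomato retrovirus (labelled Mll4f/f + Cre, 2 libraries) or the empty Tomato vector (Mll4f/f + EV, 2). These cells were sorted for both reporters 5 days after infection and are called Mll4 deleted and Mll4 intact, so Cre went with deletion. In the other transformation, marrow labelled MLL4-/- was infected together with MLL-AF9-neo and either FOXO3-IRES-GFP (2 libraries) or its empty vector (1), and selected and sorted for GFP. The labels give 14 days of growth for all 4 MLL-AF9 groups, which share MLL-AF9 and culture but not the vectors or the selection.

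FOXO factors carry a forkhead domain that binds DNA and sit at the end of the insulin and growth factor pathway. When PI3 kinase and AKT are active, AKT phosphorylates FOXO proteins, 14-3-3 proteins bind them, and they leave the nucleus. In low growth signal they stay nuclear and act on genes of cell cycle arrest, stress defence, autophagy and cell death, and in blood they are known for keeping stem cells quiescent and protected from oxidation. This control acts on the protein, which RNA counts do not show.

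The bases before the annotated start of Foxo1 and Foxo3 are shown because the RNA of these genes took different courses across the cultures. Each run holds the 250 bases before the first RefSeq start in GRCm38.p6, written 5′ to 3′ on the gene's strand. Capitals mark CCAAT boxes (CCAAT, or ATTGG on the other strand) and GC boxes (GGGCGG, or CCGCCC).
Foxo1, chr3:52268087-52268336, plus strand: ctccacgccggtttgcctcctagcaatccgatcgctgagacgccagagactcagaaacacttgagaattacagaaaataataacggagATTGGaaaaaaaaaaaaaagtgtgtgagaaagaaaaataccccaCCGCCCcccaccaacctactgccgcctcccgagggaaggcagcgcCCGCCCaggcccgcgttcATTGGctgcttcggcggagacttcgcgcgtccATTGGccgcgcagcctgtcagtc
Foxo3, chr10:42276696-42276945, minus strand: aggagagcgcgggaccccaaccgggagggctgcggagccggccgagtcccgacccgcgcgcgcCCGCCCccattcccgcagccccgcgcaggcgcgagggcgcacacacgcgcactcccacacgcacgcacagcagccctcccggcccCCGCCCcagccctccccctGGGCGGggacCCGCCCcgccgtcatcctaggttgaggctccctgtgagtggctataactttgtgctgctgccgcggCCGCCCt
The Foxo1 window held 3 CCAAT boxes and 2 GC boxes, and the Foxo3 window 0 and 5. Among 32851 RefSeq windows of that length, 33.8% held a CCAAT box and 32.7% a GC box. Foxo3 had 76.4% G and C with 31 CG pairs and Foxo1 56% with 20, against medians of 52.4% and 6 over all windows. Neither window held the FOXO-binding letters GTAAACA (or TGTTTAC), found in 3.17% of all windows, or the E box CACGTG, found in 6.02%.

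Totals ran from 25895041 to 61950773 counts per library, and values are given as CPM, counts per 1000000 counts of the library. Whether both libraries of a sample stem from separate cultures is not labelled, and p-values then reflect the spread among these libraries alone. The chi-square of counts per degree of freedom was 191 within the Mll4-deleted pair, 146 within the intact pair and 1.97 within the FOXO3 pair, which may therefore be technical repeats. Because that pair enters the spread of the shared fit, calls that end when it is summed into 1 library are named. Summing it also leaves fewer libraries to give the spread, and which of these ends a call was not tested. Each of the first 2 pairs held 1 male and 1 female library by Xist and Y-linked counts, so the libraries of such a pair were not repeats of the same cells. The other 3 MLL-AF9 libraries were male. Kmt2d, the targeted gene, read 95.6 and 73.7 CPM in the deleted pair, with 79.5 and 61.8 CPM for the intact libraries (log2 fold change −0.01 ± 0.16 (SE), adjusted p = 0.972 by edgeR). In LSK cells the library labelled Mll4 deleted had 359 counts of it and the wild type library 50, which goes against the label. Counts over the whole gene do not check the deletion, so libraries are called by their labels and directions rest on those.

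All 3 genes were counted in all 7 MLL-AF9 libraries, and their order across the groups differed from gene to gene. Foxo1 was high in the first transformation and low in the second. By mean CPM its order began with LSK wild type (12.1), Mll4 deleted (8.62) and Mll4 intact (8.23). Empty vector (1.66), FOXO3 (0.865) and LSK labelled Mll4 deleted (0.386) followed. The means of the deleted and intact MLL-AF9 groups differed by less than the SD of the deleted pair, 0.504 CPM. Both intact libraries lay just below both deleted ones. Foxo3, outside the libraries with the FOXO3 vector, ran from intact (32.8) over deleted (28.5) to the empty vector (27.3), each within the spread of its neighbour, and was 0 in LSK cells. Foxo4 ran from deleted (27.9) and FOXO3 (27.8) over the empty vector (22.3) to intact (21.7) in MLL-AF9 cells. The first 2 of these Foxo4 means, and the last 2, lay within the spread of the groups. Foxo6, the remaining FOXO gene of mammals, had 0 or 1 count in every library.

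**Figure D1:**
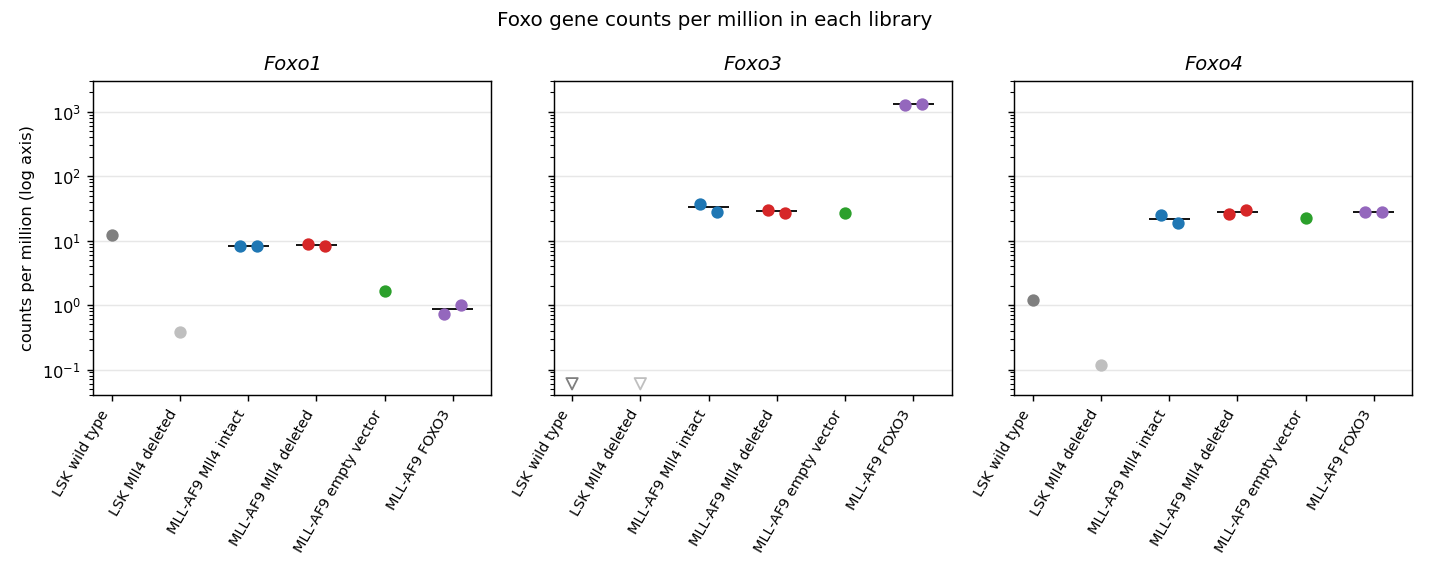
CPM of Foxo1, Foxo3 and Foxo4 on a log axis, 1 point per library in 6 groups, with a bar at the mean of groups of 2 and an open triangle for a count of 0. Foxo1 falls from about 8 CPM in the first transformation to 1.66 CPM and below in the second, and Foxo3 reads 1292 and 1309 CPM where the vector is counted.

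Loss of Mll4 in the first transformation left the 3 genes within the threshold of the test. Foxo1, a mediator of insulin response and of lymphocyte development, read 8.97 and 8.26 CPM in the deleted pair, with 8.23 and 8.22 CPM for the intact libraries. In CPM all 4 values lay within 1 CPM of each other, with both deleted libraries above both intact ones. On the scale of TMM, which sets libraries by the bulk of genes, the order was reversed. There the deleted pair (8.75 and 8.10) lay below the intact one (9.26 and 10.3). The mean was 8.62 ± 0.504 against 8.23 ± 0.00630 CPM (SD, n = 2 each), and the log2 fold change was −0.21 ± 0.22 (SE; adjusted p = 0.529). Its sign turned to 0.07 (adjusted p = 0.851) with library totals in place of TMM. Totals shifted the median of all genes from −0.03 to 0.24 (log2), and the 10 most abundant genes took 13.4% and 17.4% of counts in the intact libraries against 6.55% and 7.62% in the deleted ones.

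Foxo3, the family member most tied to blood stem cell upkeep, read 29.8 and 27.2 CPM in the deleted pair. The intact libraries had 37.7 and 28.0 CPM. In CPM the groups overlapped, since intact library 2 lay between the deleted ones. On the TMM scale, with 29.1 and 26.7 against 42.4 and 35.1 CPM, they did not. The log2 fold change of −0.47 ± 0.13 (SE) had an adjusted p of 0.0688 (edgeR, 14997 genes), so Foxo3 missed the threshold of 0.05. It passed in DESeq2 (−0.46, adjusted p = 0.0127). Leaving out intact library 2 also let it pass (−0.60, adjusted p = 0.0484). With the FOXO3 pair summed the value was −0.40 (adjusted p = 0.252), with library totals −0.20 (adjusted p = 0.421), and over these alternatives and the others run the adjusted p ran from 0.0127 to 0.421.

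Foxo4, an X-linked member that shares the AKT sites of its relatives, read 25.6 and 30.3 CPM in the deleted pair, with 24.9 and 18.6 CPM for the intact libraries. On the scale of library totals the deleted libraries were both higher, whereas on the TMM scale the values of 24.95 and 29.7 overlapped with 28.0 and 23.3 CPM. The log2 fold change was 0.09 ± 0.15 (SE; adjusted p = 0.709), and it read −0.04 without deleted library 2 and −0.03 without intact library 2. The female library was the lower of each pair, 25.6 against 30.3 and 18.6 against 24.9 CPM. With the sex of the library in the fit the fold change stayed at 0.09 with an SE of 0.09. None of the 3 genes was thus called, beside 7.97% of all genes called higher and 6.94% called lower in this comparison.

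Foxo1 set the cultures apart. The empty-vector library of the second transformation and the pair labelled Mll4 deleted in the first are all labelled as lacking Mll4. They differ in transformation, vectors, selection and route of deletion. The empty-vector library was male, and the pair held 1 female and 1 male library. Foxo1 had 87 counts, or 1.66 CPM, in the empty-vector library. In the pair labelled Mll4 deleted it had 556 and 262 counts, or 8.97 and 8.26 CPM. It was lower in the empty-vector culture by −2.46 ± 0.30 (log2, SE), a 5.49-fold difference (adjusted p = 0.0088), beside 12.2% of all genes lower and 9.54% higher. The call held with the FOXO3 pair summed (−2.51, adjusted p = 0.0259). It ended when only the 3 libraries compared were fitted (−2.46, adjusted p = 0.101), a fit with a single pair to give the spread.

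Foxo3 and Foxo4 did not pass in the same comparison. Foxo3 read 27.3 CPM in the empty-vector library beside 29.8 and 27.2 CPM, with a log2 fold change of −0.14 ± 0.17 (SE, adjusted p = 0.56). Foxo4 read 22.3 CPM beside 25.6 and 30.3 CPM, and its log2 fold change was −0.40 ± 0.19 (SE, adjusted p = 0.175). Because 1 library stands for the empty-vector culture and all the differences in handling fall together, they cannot be told apart. Marker genes moved with this comparison as well. The 7 megakaryocyte markers summed to 189 CPM in the empty-vector library, 38.3 and 39.1 CPM with FOXO3 and 432 to 762 CPM in the first transformation. The lysozyme gene Lyz2, high in mature myeloid cells, stood at 530 CPM, at 148 and 146 CPM and at 3416 to 28580.0 CPM in the same order. All 9 myeloid markers together came to 10010.0 CPM in the empty-vector library and to 11700.0 and 19940.0 CPM in the Mll4-deleted pair, and Mpo, of the first granules, to 6773 CPM beside 5124 and 5729 CPM. The 8 erythroid markers summed to 47.0 CPM in the empty-vector library and to 3.20 and 2.21 CPM in that pair. The part of these in the Foxo1 difference was not tested, and in bulk libraries fewer cells of a type and less RNA per cell cannot be told apart.

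The FOXO3 vector showed in the Foxo3 counts, as the label states. Reads counted for Foxo3 rose from 1433 in the empty-vector library to 47922 and 58731 in the FOXO3 libraries, or from 27.3 to 1292 and 1309 CPM. They made up 0.129% and 0.131% of all counts and placed Foxo3 at rank 67 and 64 among the genes. The log2 fold change was 5.53 ± 0.22 (SE), a 46.1-fold difference (adjusted p = 0.000745), beside 2.2% of all genes higher and 4.93% lower. These counts include the vector, so they do not give the level of the cells' own Foxo3 gene. No source used here gives the species of the FOXO3 insert, and the counts need not give the full amount of vector RNA either.

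The other members did not pass the test with FOXO3. Foxo1 had 27 and 45 counts in the FOXO3 libraries, 0.728 and 1.003 CPM, and 1.66 CPM in the empty-vector library. Both FOXO3 libraries were lower. Foxo1 had a log2 fold change of −0.98 ± 0.28 (SE; adjusted p = 0.106). Its size ranged from −1.21 to −0.74 and its adjusted p from 0.000929 to 0.51 over the alternatives. It passed only in the fit of the 3 libraries compared, where the spread comes from the FOXO3 pair alone. Foxo4 stood at 28.2 and 27.4 CPM with FOXO3 and at 22.3 CPM with the empty vector. Its log2 fold change was 0.27 ± 0.19 (SE, adjusted p = 0.468), and it too passed only in the fit of those 3 libraries (0.30, adjusted p = 5.44e-07). The comparison of FOXO3 with the empty vector and that of the cultures share the empty-vector library, so their values for a gene are not independent.

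**Figure D2:**
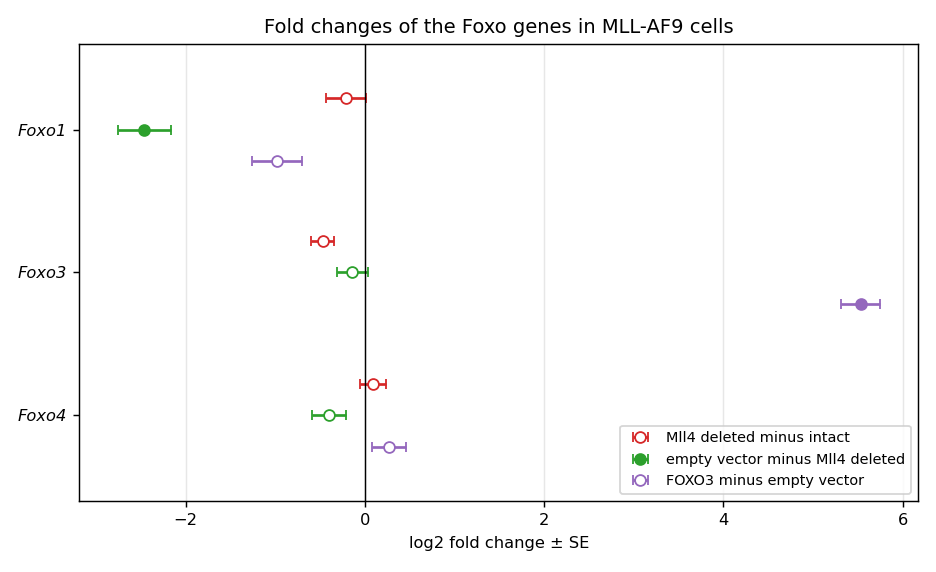
Log2 fold changes with SE bars of Foxo1, Foxo3 and Foxo4 in 3 comparisons of MLL-AF9 cells, filled where the adjusted p was under 0.05. Foxo1 between the cultures (−2.46) and Foxo3 with its vector (5.53) are the filled points, and the other 7 are open.

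Ratios of counts within a library need no scaling between libraries. The ratio of Foxo1 to Foxo3 was 0.301 and 0.304 in the libraries labelled Mll4 deleted, 0.219 and 0.294 in the intact ones and 0.0607 in the empty-vector library. The last lay below all 4 libraries of the first transformation. The ratio of Foxo4 to Foxo3 was 0.858 and 1.12 in the libraries labelled Mll4 deleted, 0.661 and 0.663 in the intact ones and 0.818 in the empty-vector library. For Mll4 loss both ratios were higher in the 2 deleted libraries than in the 2 intact ones, by 0.25 and 0.56 on the log2 scale. The two-sided exact permutation test gave p = 0.333 for each, the smallest value that 2 against 2 libraries allow, and 0.333 after Benjamini-Hochberg adjustment over both. The ratio of Foxo1 to Foxo4 was 0.273 to 0.443 in the first transformation, 0.0742 in the empty-vector library and 0.0259 and 0.0366 with FOXO3.

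**Figure D3:**
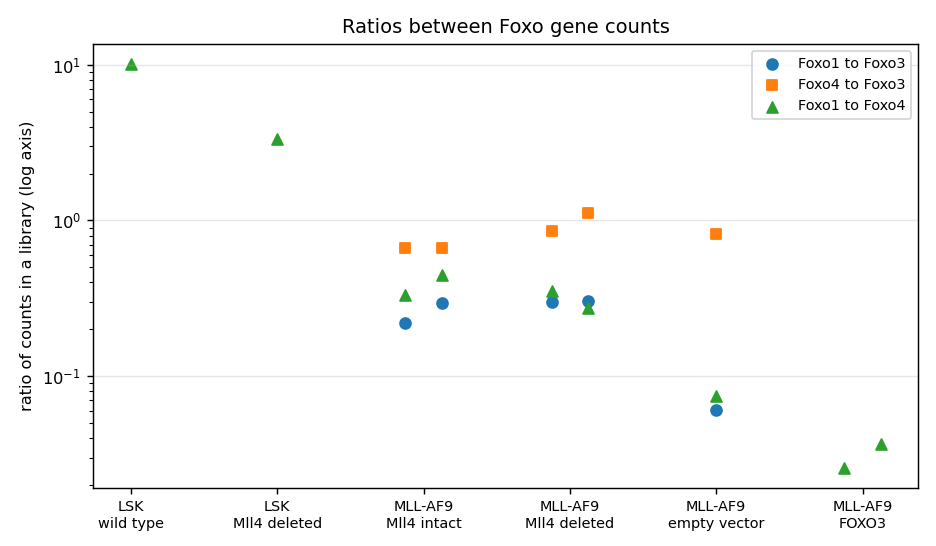
Ratios between the counts of Foxo genes within each library on a log axis, by group, leaving out ratios to Foxo3 where its counts are 0 or include the vector. Ratios with Foxo1 on top drop from between 0.219 and 0.443 in the first transformation to 0.0607 and 0.0742 in the empty-vector library, while that of Foxo4 to Foxo3 stays between 0.661 and 1.12.

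Per length of transcript, Foxo1 RNA was the scarcest of the 3 genes in every MLL-AF9 library. CPM was divided by the length of the GENCODE M21 transcript that carries the RefSeq entry, 8665 bases for Foxo1, 2889 for Foxo3 and 3162 for Foxo4. In the first transformation this gave 0.949 to 1.04 CPM per kilobase for Foxo1, 9.41 to 13.0 for Foxo3 and 5.87 to 9.58 for Foxo4. In the empty-vector library the values were 0.191, 9.45 and 7.06 CPM per kilobase. Foxo1 was also lowest in CPM without a length. The order of Foxo3 and Foxo4 depends on the transcript lengths, and the annotation behind the counts is not given in the sources used here.

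In LSK cells Foxo1 had the most counts of the 3 genes, not allowing for length, and Foxo3 none. The library labelled wild type held 323 counts of Foxo1 (12.1 CPM), 32 of Foxo4 (1.20 CPM) and 0 of Foxo3. The library labelled Mll4 deleted held 10 counts of Foxo1 (0.386 CPM), 3 of Foxo4 (0.116 CPM) and 0 of Foxo3. The ratio of Foxo1 to Foxo4 was 10.1 and 3.33, above 1 in both, whereas it was below 1 in all 7 MLL-AF9 libraries. By counting error alone a count of 0 allows up to 3 counts, or 0.113 and 0.116 CPM of Foxo3, but reads amplified from about 50 cells are not independent molecules, and the level could be higher. Of 6771 genes that averaged 25 CPM or more in the 5 MLL-AF9 libraries without FOXO3, 324 (4.79%) were likewise at 0 in both LSK libraries, and 12.8% in at least 1 of them. The amplified LSK libraries and the MLL-AF9 libraries differ in preparation as well as in cell type, which cannot be told apart.

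Between the LSK libraries, Foxo1 was 31.4-fold lower in the one labelled Mll4 deleted, with a log2 ratio of −4.97 (95% exact binomial interval −6.05 to −4.08). Foxo4 was 10.4-fold lower (−3.38, −5.73 to −1.70). With 1 library per group there is no test, and the intervals cover counting error only. Ratios of this size were common in these libraries. Of 10666 genes with at least 30 counts in the 2 libraries together, 18.8% were at least 8-fold lower in the library labelled Mll4 deleted and 13.8% at least 8-fold higher. Those limits were chosen after the values were seen. A drop as large as that of Foxo1 was seen in 13.5% of them. The markers of the sort were present, with Kit at 102 and 46.8 CPM, Ly6a (Sca1) at 28.2 and 80.2 CPM and Cd34 at 292 and 298 CPM in the deleted and wild type library. The stem cell markers Procr, at 12.8 and 181 CPM, and Slamf1, at 0 and 30.04 CPM, moved in the direction of Foxo1. So did the erythroid markers, of which 3 of 8 were detected in the deleted and 4 in the wild type library, with sums of 2.47 and 207 CPM, and Car1 at 0.0386 and 107 CPM. Their part in the Foxo1 difference was not tested. Of the 8 B cell markers 1 was detected in the library labelled Mll4 deleted, Cd79b at 35.5 CPM, with Cd79a at 0 in both libraries. Y-linked genes summed to 24.3 CPM in the library labelled Mll4 deleted and to 1.01 CPM in the wild type one, with Xist at 2.05 and 3.65 CPM. The LSK libraries thus differed in the counts that mark sex, which cannot be told apart from genotype here, also for the X-linked Foxo4.

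The genes closest in pattern to each member were sought over the libraries, by the root mean square difference of log2(CPM + 1) after centring each gene. Over 9 libraries and 9306 genes that averaged 10 CPM or more, those nearest to Foxo1 were Slc41a3 (0.29), Dst (0.334), Galnt10 (0.381) and St3gal5 (0.396), where the median of all genes was 1.7. Slc41a3, a magnesium carrier, had 1.74 and 26.5 CPM in the LSK libraries labelled Mll4 deleted and wild type, 16.6 to 25.3 CPM in the first transformation and 5.10 to 6.61 CPM in the second. Its low levels in the second transformation and in the LSK library labelled Mll4 deleted follow from its choice as the gene nearest to Foxo1. For Foxo4 they were Ambra1 (0.161), Dgkq (0.162), Usf1 (0.17) and Snapc5 (0.18), against a median of 1.32. For Foxo3, over the 7 libraries without FOXO3, they were Utrn (0.0916), Rabgef1 (0.0929), Tmem184c (0.0978) and Rala (0.113), against a median of 1.73. Utrn, the dystrophin relative utrophin, was likewise at 0 in both LSK libraries and between 26.5 and 33.7 CPM in the first transformation. The order of such lists reflects library preparation and depth as well as cells.

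Regulators of FOXO proteins were listed by role. The kinase list held 26 genes of the insulin and AKT pathway and of other kinases that restrain FOXO, adaptors and subunits included. The other lists held 10 phosphatase genes, 9 genes of nuclear transport, 16 of modifying enzymes and 9 of kinases that activate FOXO. The phosphatase and activating lists included genes of subunits that are not the enzyme itself. Of these 70 genes 68 were tested. With Mll4 loss 5 were higher (7.35%) and 7 lower (10.3%), near the background, with a median log2 fold change of −0.08 against −0.03 over all genes tested. With library totals 14 were higher (20.6%) and 4 lower (5.88%), beside 19.6% and 4% of all genes. Calls fell to 1 higher and 1 lower with the FOXO3 pair summed or without either FOXO3 library. In those fits 1.18% to 1.24% of all genes were higher and 0.835% to 0.854% lower. Sgk1, a kinase that phosphorylates FOXO3 as AKT does, fell from 270 and 429 CPM in the intact libraries to 68.6 and 66.4 CPM (log2 fold change −2.67 ± 0.28, adjusted p = 0.0095). The 2 deleted libraries lay far below both intact ones, and the call held with the pair summed. Skp2, part of a ubiquitin ligase that marks FOXO1 for breakdown, rose from 6.76 and 6.57 CPM to 22.7 and 26.7 CPM (1.61 ± 0.13, adjusted p = 0.00757). With the pair summed, Sgk1 and Skp2 each had an adjusted p of 0.04835 by edgeR, just under the threshold. Both calls ended when only the libraries compared were fitted.

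Other regulators called with Mll4 loss lost the call with the FOXO3 pair summed. Insr, the insulin receptor, fell from 70.9 and 57.4 to 36.2 and 25.9 CPM (−1.32 ± 0.18, adjusted p = 0.0139, and 0.0569 with the pair summed). Prmt1, a methyltransferase that can shield FOXO1 from AKT, rose from 46.5 and 56.1 to 127 CPM in both deleted libraries (1.02 ± 0.16, adjusted p = 0.0176, and 0.0579). Ran, the nuclear transport GTPase, rose from 321 and 317 to 662 and 595 CPM (0.70 ± 0.12, adjusted p = 0.0217, and 0.0877). Akt1 itself, at 292 and 321 against 245 and 244 CPM, had a log2 fold change of 0.04 ± 0.12 (adjusted p = 0.827). It did not pass, and none of the 10 genes of the phosphatase list or the 9 of the activating list was called.

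Genes described as FOXO targets or responders were listed by role as well, 65 in the files, of which 60 were tested. With Mll4 loss 3 were higher (5%) and 17 lower (28.3%), beside 7.97% and 6.94% of all genes, with a median log2 fold change of −0.40 against −0.03. With library totals 7 targets were higher and 7 lower (11.7% each), beside 19.6% of all genes higher and 4% lower. With the FOXO3 pair summed or without either FOXO3 library, 0 targets were higher and 4 lower. Of all genes, 1.18% to 1.24% were higher and 0.835% to 0.854% lower in those fits. Lower calls lay among feedback genes, which include insulin pathway genes and Klf factors (6 of 11 tested), cell cycle (4 of 11) and cell death genes (3 of 8). Of the feedback genes Insr, Irs2, Rictor and Pik3ca are also on the regulator list, where Insr and Irs2 were likewise counted as lower. Stress genes had 2 higher and 2 lower of 13, autophagy genes 1 and 1 of 10, and lymphoid genes 1 lower of 7.

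Among the targets that kept the call with the pair summed, Il7r, the interleukin 7 receptor that FOXO1 drives in lymphocytes, fell from 304 and 356 CPM in the intact libraries to 71.5 and 85.6 CPM (log2 fold change −2.36 ± 0.18, adjusted p = 0.0073). Gadd45a, a growth arrest and DNA damage gene, fell from 95.9 and 58.9 to 20.9 and 17.9 CPM (−2.26 ± 0.21, adjusted p = 0.00791). Ccnd1, cyclin D1, which FOXO factors repress, fell from 133 and 164 to 47.6 and 56.9 CPM (−1.79 ± 0.19, adjusted p = 0.00974). Klf4, a zinc finger factor of monocytes and stem cells, fell from 85.3 and 89.7 to 33.1 and 42.4 CPM (−1.50 ± 0.16, adjusted p = 0.0101). In each of these 4 genes both deleted libraries lay below both intact ones. With the pair summed each had an adjusted p of 0.04835 by edgeR, just under the threshold. Each of these calls ended when only the libraries compared were fitted. Classical targets did not all move with them. Cdkn1a, the p21 inhibitor, fell by less (−0.62 ± 0.11, adjusted p = 0.0212, and 0.135 with the pair summed). Cdkn1b, the p27 inhibitor (−0.42 ± 0.15, adjusted p = 0.111), Bcl2l11, the death gene BIM (−0.57 ± 0.14, adjusted p = 0.0525), and the oxidant defence genes Sod2 (−0.18 ± 0.20, adjusted p = 0.577) and Cat (−0.21 ± 0.13, adjusted p = 0.289) did not pass. Myeloid markers moved with this comparison, and not all one way. All 9 were detected, and their sum, most of it Lyz2 in the intact libraries, was 11700.0 and 19940.0 CPM in the deleted and 23400.0 and 34180.0 CPM in the intact pair. Against that sum, Mpo was higher in the deleted pair (5124 and 5729 against 822 and 1533 CPM), as was Elane (1466 and 2833 against 200.3 and 279 CPM). Their part in the target values was not tested.

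The regulators were compared in the same way between FOXO3 and the single empty-vector library. In this comparison DESeq2 called 4.46% of all genes higher and 7.38% lower. Of 68 regulators 3 were higher (4.41%) and 1 lower (1.47%), beside 2.2% and 4.93% of all genes, and with the FOXO3 pair summed, or without either of its libraries, none was called by edgeR. In DESeq2 8 of the regulators were called. Inppl1, a lipid phosphatase that limits AKT signalling, rose from 6.87 to 24.0 and 23.6 CPM (log2 fold change 1.75 ± 0.21, adjusted p = 0.00984, and 0.0607 with the pair summed). Ikbke, a kinase that can restrain FOXO3, rose from 58.8 to 168 CPM in both libraries (1.46 ± 0.21, adjusted p = 0.0171, and 0.0908). Sgk1 fell from 23.9 to 6.18 and 6.22 CPM (−1.99 ± 0.31, adjusted p = 0.0231, and 0.127). Ppp2cb, a catalytic subunit of protein phosphatase PP2A, rose from 131 to 252 and 246 CPM (0.88 ± 0.15, adjusted p = 0.0276, and 0.167).

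Of 60 targets, 3 rose with FOXO3 (5%) and 5 fell (8.33%), beside 2.2% and 4.93% of all genes, with a median of 0.03 against −0.04. Fewer calls were made with the pair summed or without either FOXO3 library, among the targets and among all genes. More were made without either library labelled Mll4 deleted, again in both. Markers moved here too. From the empty-vector library to the FOXO3 libraries, erythroid markers went from 47.0 to 1.83 and 1.51 CPM in sum. Megakaryocyte markers went from 189 to 38.3 and 39.1 CPM. The 9 myeloid markers went from 10010.0 to 15270.0 and 15350.0 CPM in sum, but not all one way. Elane rose from 1891 to 5966 and 5981 CPM, and Mpo, Itgam, Cebpa and Spi1 were also higher. Lyz2 fell from 530 to 148 and 146 CPM, and Csf1r, Cd68 and Fcgr3 were also lower. Their part in the target values was not tested. Selenop, the plasma selenoprotein, a known target of FOXO factors, rose from 42.4 CPM to 177 and 181 CPM (log2 fold change 2.03 ± 0.15, adjusted p = 0.00322). Sesn2, a sestrin that restrains mTOR, rose from 27.5 to 54.9 and 56.3 CPM (0.96 ± 0.18, adjusted p = 0.0352, and 0.183 with the pair summed). Klf9 rose as well, a name given after its value was seen.

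Among the targets that fell with FOXO3 were Il7r and Cdkn1a, which FOXO factors are known to activate in other cells. Il7r fell from 6.30 CPM (331 counts) to 0.189 and 0.245 CPM (7 and 11 counts), a log2 fold change of −4.88 ± 0.28 (adjusted p = 0.00191). Klf4 fell from 123 counts to 2 and 3, a 38.4-fold difference in pooled CPM (95% exact binomial interval 16.0 to 120.3, counting error only; adjusted p = 0.00203). Both calls held with the pair summed. Cdkn1a fell from 85.3 to 51.5 and 49.9 CPM (−0.80 ± 0.13, adjusted p = 0.0229, and 0.262 with the pair summed). Trib1, a pseudokinase gene, fell from 3.85 to 0.728 and 0.446 CPM (−2.77 ± 0.45, adjusted p = 0.024, and 0.0913). Itgb7, an integrin chain for homing to the gut, fell from 57.6 to 1.75 and 1.63 CPM (−5.14 ± 1.01, adjusted p = 0.0412, and 0.199). Cdkn1b (0.36 ± 0.18, adjusted p = 0.315), Bcl2l11 (−0.01 ± 0.18, adjusted p = 0.991), Sod2 (−0.42 ± 0.24, adjusted p = 0.376) and Cat (0.16 ± 0.16, adjusted p = 0.6) did not pass with FOXO3.

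**Figure D4:**
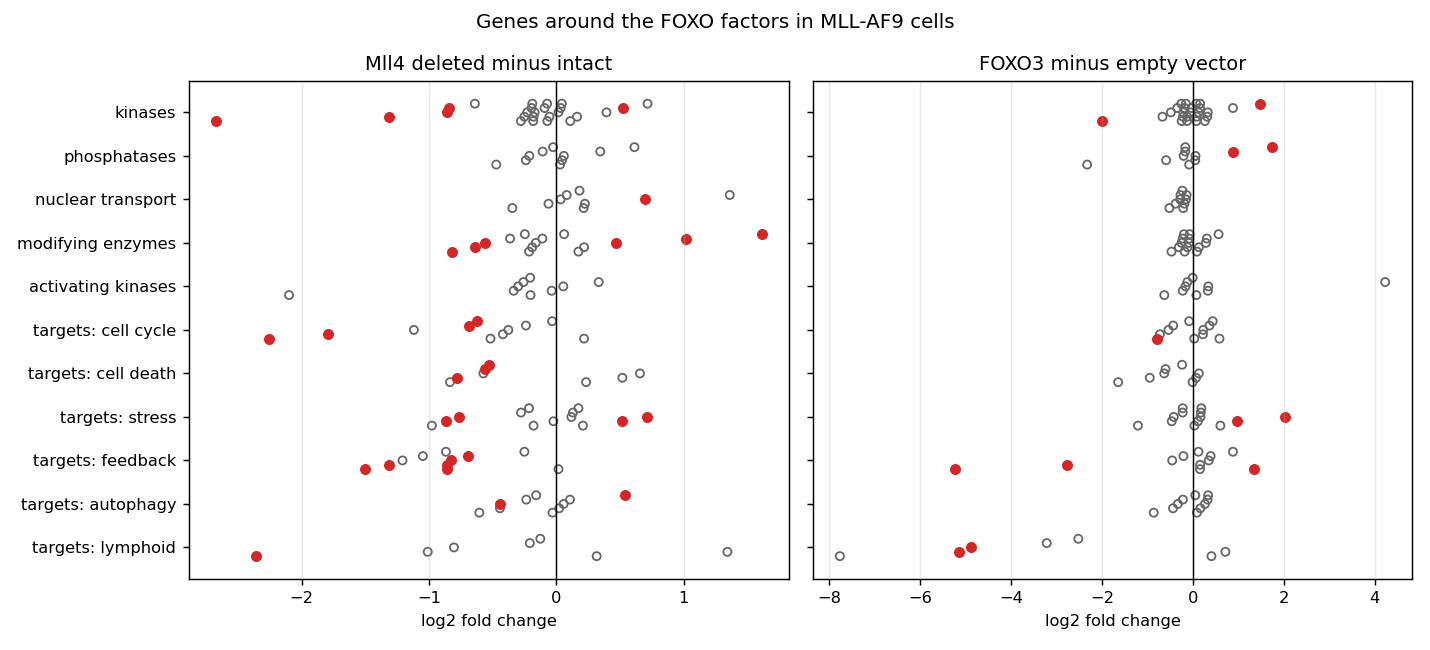
Log2 fold changes of tested regulators and targets by role, for Mll4 loss on the left and FOXO3 on the right, 1 point per gene, filled red where the adjusted p was under 0.05. The scales of the panels differ. Filled points of the target groups lie mostly left of 0 on the left panel (17 lower, 3 higher), and on the right panel 5 lie left and 3 right.

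Levels of several of these targets in the empty-vector culture also lay far from those of the first transformation. In that comparison 1 target was higher and 19 were lower than in the pair labelled Mll4 deleted, of 60 tested, beside 9.54% and 12.2% of all genes. Il7r stood at 6.30 CPM in the empty-vector library and 71.5 and 85.6 CPM in that pair (−3.72 ± 0.26, adjusted p = 0.00364). Klf4 stood at 2.34 CPM beside 33.1 and 42.4 CPM (−4.09 ± 0.25, adjusted p = 0.00292), and Cdkn1a at 85.3 CPM beside 545 and 507 CPM (−2.70 ± 0.15, adjusted p = 0.00229). Inppl1 stood at 6.87 CPM beside 68.6 and 74.6 CPM (−3.46 ± 0.23, adjusted p = 0.00331). These calls held with the FOXO3 pair summed and ended when only the 3 libraries were fitted. With FOXO3, Inppl1 stayed below its level in the first transformation. Selenop, at 42.4 CPM in the empty-vector library, read 126 and 141 CPM in the deleted pair of the first transformation, below the 177 and 181 CPM with FOXO3.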

How the data were processed

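The files as deposited by the authors hold unnormalized counts of reads by NCBI gene number, each library in its own file. TopHat2 2.0.11, Bowtie 0.12.8 and the build mm9 are named in the submitters' processing notes. How reads were counted (tool, annotation, strand) is not given in the sources used here. Names came from the RefSeq table of GRCm38.p6, with 23185 of 23282 numbers matched; the other 97 held 0.0373% to 1.01% of counts and stayed in totals and tests.

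The test was that of edgeR 4.0.16, run in R 4.3.3 (TMM, default filter, quasi-likelihood test, Benjamini-Hochberg over 14997 genes, threshold 0.05), in 1 fit of the 7 MLL-AF9 libraries with 4 groups. A ± is an SE beside a log2 fold change and an SD beside a CPM. LSK ratios have 95% Clopper-Pearson intervals and a floor of 3 counts. Named genes were the 2 with the smallest p per role list in the Mll4 and FOXO3 comparisons, plus 10 fixed ones; some genes these rules take are not reported here. The members, lists and tests were chosen with earlier results of these data known. Alternatives were RLE and total-count scaling, no filter, a mean of at least 5 CPM, DESeq2 1.42.0, the FOXO3 pair summed, only the libraries compared, sex, a replicate block by the library number in the files, and each library left out; the fit was tested on simulated data. Promoter bases are from RefSeq (GRCm38.p6); motifs were searched on both strands.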

Additional observations from a re-analysis of the deposited data

How the results depend on the processing

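Of the 9 fold changes of the Foxo genes, Foxo1 turned to 0.07 for Mll4 loss with library totals, and Foxo4 to −0.04 and −0.03 without deleted or intact library 2. Foxo3 for Mll4 loss passed in DESeq2 (−0.46). In a fit of only the libraries compared, Foxo1 (−0.93) and Foxo4 (0.30) passed with FOXO3 and Foxo1 between the cultures (−2.46) did not. Leaving out single libraries gave ranges for Mll4 loss of −0.29 to −0.13 for Foxo1, −0.60 to −0.33 for Foxo3 and −0.04 to 0.28 for Foxo4. With FOXO3 they were −1.21 to −0.74, 5.53 to 5.56 and 0.27 to 0.31, and between the cultures −2.51 to −2.45, −0.21 to −0.13 and −0.57 to −0.27. The log2 difference of the ratio to Foxo3 ran from 0.04 to 0.47 for Foxo1 and from 0.37 to 0.75 for Foxo4. The library number as a replicate block changed no call of the 3 genes. GEO's labels do not pair the libraries, and deleted and intact libraries of the same number differed in sex. The block therefore cannot show what a pairing by origin would change.

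Called regulators with Mll4 loss, 12 in the main analysis, numbered 2 with the FOXO3 pair summed, 0 with only the libraries compared (16 had an unadjusted p under 0.05) and 18 in DESeq2 or with library totals; leaving out libraries gave 2 to 17. With FOXO3, 4 became 8 in DESeq2, 0 with the pair summed and 57 with only the libraries compared, and 0 to 8 with a library left out. Called targets with Mll4 loss, 20, became 4 with the pair summed, 0 with only the libraries compared (25 had an unadjusted p under 0.05) and 29 in DESeq2, and 4 to 26 with a library left out. With FOXO3, 8 targets became 13 in DESeq2, 3 with the pair summed, 55 with only the libraries compared and 5 with sex in the fit, and 3 to 14 with a library left out. Over all genes, the 1196 higher and 1041 lower with Mll4 loss became 184 and 128 with the pair summed and 0 with only the libraries compared by edgeR (3498 had an unadjusted p under 0.05). With FOXO3 330 and 739 became 32 and 146, or 4729 and 4981. Between the cultures 1430 and 1830 became 160 and 885, or 0 (3299 had an unadjusted p under 0.05). These last fits hold fewer samples, and the cause was not tested otherwise. In the main analysis 68 regulators and 60 targets were tested. For Mll4 loss, DESeq2 called 10.5% of all genes higher and 9.64% lower, and library totals 19.6% and 4%. With FOXO3 the shares were 4.46% and 7.38% in DESeq2, and 1.62% and 3.3% with sex in the fit. They were 34.1% and 35.9% with only the libraries compared, where 59 targets were tested. With 27 to 87 counts in the second transformation, Foxo1 is the member whose precision depth limits most there.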
